A study of Mus musculus with 2 samples.

Results

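Krüppel-like factors were described in microglia sorted from mouse brain under 2 conditions, awake and pentobarbital anesthesia. The 8 members, Klf2, Klf3, Klf4, Klf6, Klf7, Klf9, Klf10 and Klf13, were taken by gene symbol from a gene list of 55450 entries, which holds 17 Klf symbols in all. The mice were adult males of the C57BL/6J strain with no engineered allele named, 3 per group, injected either with normal saline (the awake group) or with sodium pentobarbital at 100 mg/kg (the anesthesia group). Brains of both groups were dissociated with collagenase IV and DNase I and cleared of myelin on Percoll, and CD11b+CD45low cells were sorted into a 10x Genomics 3′ single-cell assay, which counts unique molecular identifiers (UMIs, one per captured transcript). Each group is 1 library, and whether it pooled the 3 mice is not given, so every difference below is between single libraries, with no replicate to check it. The time between injection and dissection is not given in the sources used here.

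Krüppel-like factors are transcription factors that bind GC-rich and CACCC sequences through a block of zinc fingers at the carboxyl end, and they share these sites with the related SP factors. Members differ in the rest of the protein, which recruits either coactivators or corepressors, so that members can act on the same sites in opposite directions. Klf2 and Klf4 are known for holding down inflammatory genes in endothelium under laminar flow, where the ERK5 kinase and MEF2 factors switch them on, and Klf2 also restrains activation of monocytes and macrophages. Klf10 was first described as an early gene induced by TGF-beta, a cytokine that maintains microglial identity.

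The awake library held 8600 barcodes with 53262885 UMIs and the anesthesia library 9412 barcodes with 61139016 UMIs, and 8223 and 8944 cells passed the cell filters. Of these, 7558 awake and 8598 anesthesia cells were microglia-like and 113 and 122 were endothelial-like, a cell type outside the sort gate. All 10 microglial markers were present in microglia-like cells of both libraries, between 178 and 8109 CPM (UMIs scaled to a total of 1000000 in each class and library), whereas the 10 endothelial markers summed to 69.9 CPM (awake) and 57.1 CPM (anesthesia) there. Median depth in microglia-like cells was 5943 UMIs awake and 5452 under anesthesia, and the median mitochondrial share was 1.37% and 2.16%. The libraries had 14 barcodes in common. Clusters 0 and 1 were mostly awake cells (3909 and 3252, against 74 and 119 from the anesthesia library) and clusters 2, 3 and 4 mostly anesthesia cells (3160, 2489 and 2450, against 68, 20 and 39), so microglial state and library cannot be told apart.

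The promoters of Klf2 and Klf4 are shown because the ERK5 and MEF2 route acts on both genes in endothelium and because GC boxes are sites of SP and Krüppel-like factors. Each sequence is the 250 bases before the RefSeq transcription start in GRCm38.p6, read 5′ to 3′ on the gene's strand. Capitals mark GC boxes (CCGCCC or its reverse complement GGGCGG) and CTAAATTTAG, a match to the MEF2 consensus. That consensus was CTAWWWWTAR on either strand, where W is A or T and R is A or G. Klf2 lies at chr8:72318812-72319061 on the plus strand and Klf4 at chr4:55532476-55532725 on the minus strand.
Klf2: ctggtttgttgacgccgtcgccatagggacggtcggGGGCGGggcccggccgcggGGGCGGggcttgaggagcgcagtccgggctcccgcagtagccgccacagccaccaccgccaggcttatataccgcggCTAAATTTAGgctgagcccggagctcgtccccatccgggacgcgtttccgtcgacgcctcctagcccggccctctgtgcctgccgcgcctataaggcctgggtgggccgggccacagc
Klf4: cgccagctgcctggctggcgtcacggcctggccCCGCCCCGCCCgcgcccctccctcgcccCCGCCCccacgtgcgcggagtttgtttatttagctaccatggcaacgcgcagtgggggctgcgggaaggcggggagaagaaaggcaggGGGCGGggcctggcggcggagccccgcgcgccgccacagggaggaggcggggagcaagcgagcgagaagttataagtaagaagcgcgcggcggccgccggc
The Klf2 promoter held 1 match to the MEF2 consensus, 118 bases before the start, and 2 GC boxes. Among the 7 members with a promoter in the table, which lacks Klf10, the MEF2 match was found in Klf2 only, and 1.69% of 32851 promoters of the same length hold one. Klf4 held 4 GC boxes, a motif present in 32.7% of promoters. These matches describe letters in a window and were not tested for binding. Klf10 itself lies at chr15:38291463-38300706 on the minus strand of GRCm38. The 3′ untranslated regions of all 8 members hold the AU-rich pentamer ATTTA on the transcribed strand, as do 66.8% of 10069 measured genes, and none holds the longer TTATTTATT, found in 7.28%.

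In microglia-like cells Klf2 was lower and Klf10 higher in the anesthesia library, and the other 6 members lay within 1.5-fold. Klf2 was at 1102 CPM in the awake library (53121 UMIs) and 336 CPM in the anesthesia library (19641 UMIs), a level 3.28-fold lower (log2 ratio of anesthesia over awake -1.71, 95% counting interval -1.74 to -1.69). Klf10 was at 97.1 CPM awake (4682 UMIs) and 288 CPM under anesthesia (16798 UMIs), 2.96-fold higher (log2 ratio 1.57, 1.52 to 1.61). The Klf2 to Klf10 ratio thus differed between the libraries by -3.28 on the log2 scale (-3.33 to -3.23). In cells with at most 5% mitochondrial UMIs the log2 ratios were -1.71 for Klf2 and 1.58 for Klf10. Intervals here and below are exact binomial intervals on 2 counts and cover counting error only, not the spread between mice.

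**Figure D1:**
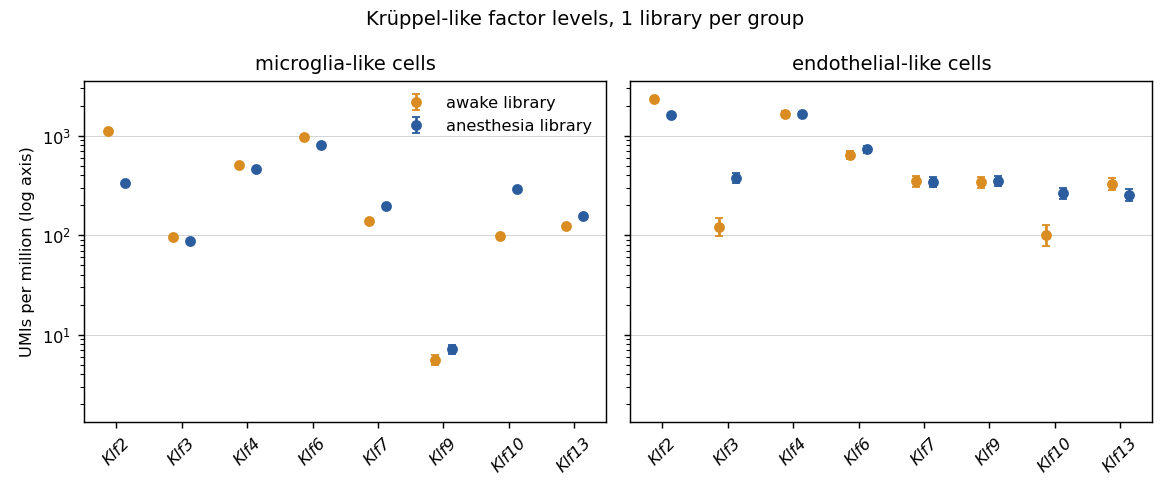
Level of each factor in CPM (log axis) in microglia-like cells (left) and endothelial-like cells (right). Points are the 1 awake and the 1 anesthesia library, bars are exact Poisson 95% counting intervals. In microglia-like cells Klf2 is lower (1102 against 336) and Klf10 higher (97.1 against 288) in the anesthesia library.

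Of the 8 members, all measured at 200 UMIs or more, 1 was at least 1.5-fold lower and 1 at least 1.5-fold higher. Among all 11469 genes measured in these cells, 11.9% were at least 1.5-fold lower and 13.6% at least 1.5-fold higher, so the members' counts are near the background. Their median log2 ratio was 0.11, against -0.014 for all measured genes. What set Klf2 and Klf10 apart was size. Only 22 measured genes had a lower log2 ratio than Klf2, and 112 had a higher one than Klf10, while the 5th to 95th percentile of all measured genes ran from -0.83 to 0.95.

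Klf4, which in monocytes drives differentiation, was at 507 CPM awake and 464 CPM under anesthesia (log2 ratio -0.13, -0.15 to -0.10). Its direction turned to 0.027 within clusters and to 0.0030 after a length and GC trend was removed. Klf6, which in mouse macrophages promotes inflammatory gene expression together with NF-kB, was at 971 CPM and 802 CPM (-0.28, -0.30 to -0.26). Klf3, a repressor that recruits CtBP, was at 95.01 CPM and 87.5 CPM (-0.12, -0.18 to -0.060). All 3 were slightly lower in the anesthesia library, far short of Klf2.

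Klf7, known for supporting axon growth in neurons, was at 138 CPM awake and 196 CPM under anesthesia (log2 ratio 0.50, 0.46 to 0.54). Klf13, which represses through the Sin3a complex and activates the chemokine gene CCL5 in human T cells, was at 123 CPM and 156 CPM (0.34, 0.29 to 0.39). Both were higher in the anesthesia library by less than 1.5-fold. Klf9, a gene induced by glucocorticoid and thyroid hormone, had 269 UMIs awake and 417 under anesthesia, or 5.58 and 7.14 CPM. After each cell was thinned to 2000 UMIs, 0.991% of awake and 1.27% of anesthesia microglia-like cells had a Klf9 UMI. The endothelial gene Cldn5 was found in 1.90% and 1.25%. Klf9 was thus rare there and no difference is read from it. In thinned endothelial-like cells Cldn5 averaged 12.0 and 8.54 UMIs and Klf9 0.84 and 0.80. The Cldn5 share therefore does not measure carried-over Klf9, whose part was not tested. Klf3 overlaps an antisense transcript (Gm20033, 66 and 72 UMIs) and Klf7 another (Gm26649, 83 and 165 UMIs), small against the genes' own counts. C230096K16Rik overlaps Klf3 on the same strand outside its exons and had 603 UMIs awake and 430 under anesthesia. Klf3 itself had 4580 and 5113 UMIs. Whether any reads of one were counted for the other was not tested.

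**Figure D2:**
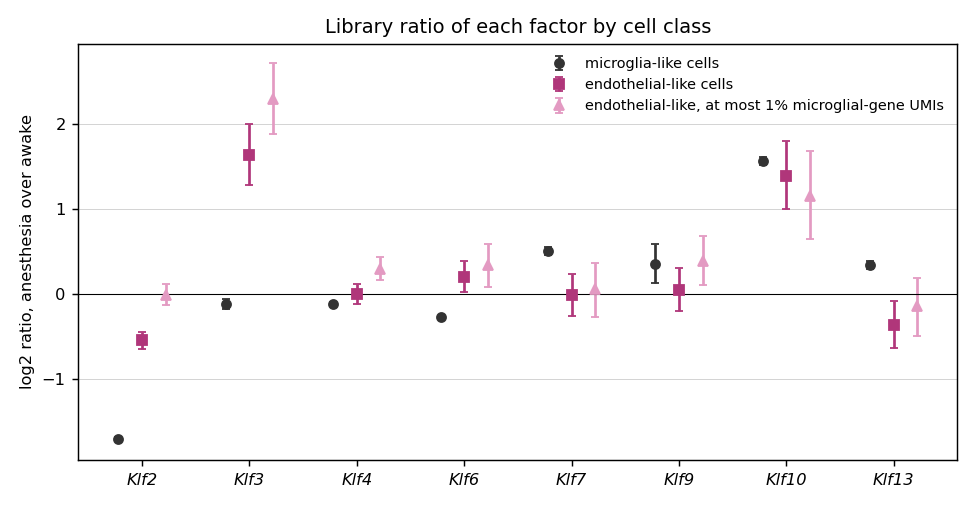
Log2 ratio of anesthesia over awake for each factor with its 95% counting interval, in microglia-like cells (circles), all endothelial-like cells (squares) and endothelial-like cells with at most 1% of UMIs from 8 microglial genes (triangles). Klf10 lies above 0 in all 3 sets, Klf2 at -1.71 in microglia-like cells and at -0.013 in the last set, and Klf3 above 1.5 in both endothelial sets.

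Per cell, Klf2 in the awake library was spread over a long tail. With each cell thinned to 2000 UMIs, which left 7369 awake and 8290 anesthesia microglia-like cells, 64.7% of awake cells had a Klf2 UMI (exact 95% interval 63.6% to 65.8%) and 22.9% had 4 or more. Of anesthesia cells 36.4% had a Klf2 UMI (35.4% to 37.4%) and 3.81% had 4 or more. The unthinned shares with a UMI were 84.5% and 60.3%. Highest counts in 1 thinned cell were 40 awake and 19 under anesthesia, and the variance over the mean was 4.54 and 2.38, where counting alone gives about 1. P2ry12, a purinergic receptor that marks microglia, had a variance over mean of 1.37 and 1.34. Klf2 thus differed both in the share of cells with a UMI and in the upper tail.

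Klf10 differed in the other direction, with a shorter tail. A Klf10 UMI was found in 15.8% of thinned awake cells (14.98% to 16.7%) and 37.2% of thinned anesthesia cells (36.2% to 38.2%), or 35.4% and 64.6% unthinned, and the variance over the mean was 1.30 and 1.46. The share with 4 or more was 0.163% and 1.34%. Klf4 was found in like shares of cells (50.2% awake, 50.7% anesthesia), while its variance over the mean was 2.30 and 1.85 and the share with 4 or more UMIs 6.64% and 4.93%. Klf6 showed the same order in its variance over mean, 2.22 and 1.79. Unlike Klf4, it was found in a smaller share of anesthesia cells, 70.6% against 75.0% of awake cells. Beside Klf9, described above, the thinned shares of the remaining members were 17.1% and 15.3% for Klf3, 23.8% and 31.0% for Klf7, and 20.8% and 26.5% for Klf13, and these 3 had a variance over mean of 1.06 to 1.11.

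**Figure D3:**
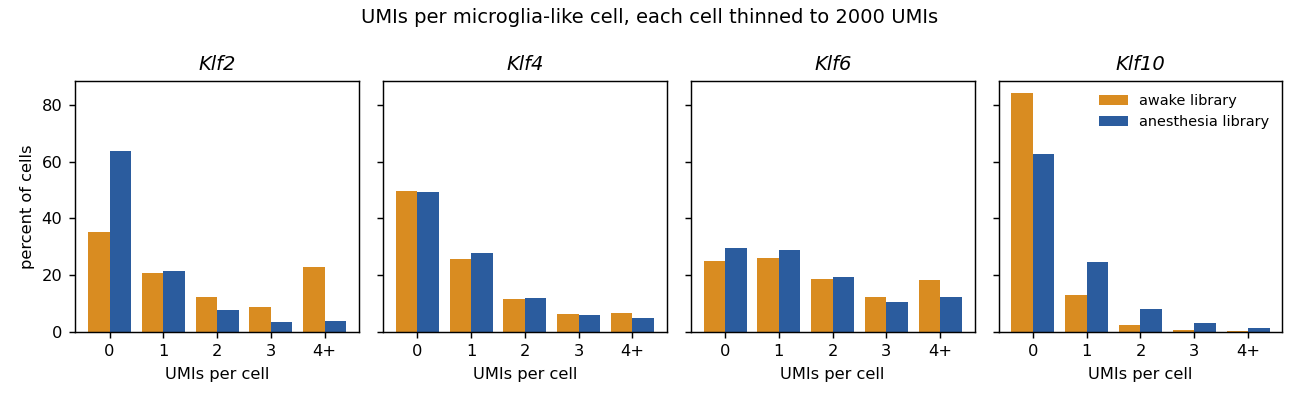
Percent of microglia-like cells with 0, 1, 2, 3 or at least 4 UMIs of Klf2, Klf4, Klf6 and Klf10 after each cell was thinned to 2000 UMIs, awake and anesthesia library. For Klf2, 22.9% of awake and 3.81% of anesthesia cells have 4 or more UMIs, and for Klf4 the shares of cells with any UMI are 50.2% and 50.7%.

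Klf2 and Klf10 were not exclusive in single cells. In the awake library 671 thinned cells had both, 4099 Klf2 alone, 494 Klf10 alone and 2105 neither, and in the anesthesia library the numbers were 938, 2079, 2146 and 3127. Cells with more Klf2 UMIs had Klf10 less often in both libraries. The share with Klf10 was 19.0% of awake cells with no Klf2 UMI and 12.4% of those with 3 or more, and 40.7% and 21.6% of anesthesia cells. Every anesthesia share lay above every awake share, so at a given Klf2 count Klf10 was still detected more often in the anesthesia library. Between cells with and without any Klf2 UMI the shares with Klf10 were 14.1% and 19.0% awake and 31.1% and 40.7% under anesthesia. Inside the large clusters this gap was smaller. Cells with and without a Klf2 UMI had Klf10 in 10.2% and 10.5% in awake cluster 0, in 20.7% and 23.4% in awake cluster 1, in 47.7% and 50.2% in anesthesia cluster 2, in 31.9% and 36.1% in anesthesia cluster 3, and in 21.2% and 26.3% in anesthesia cluster 4.

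**Figure D4:**
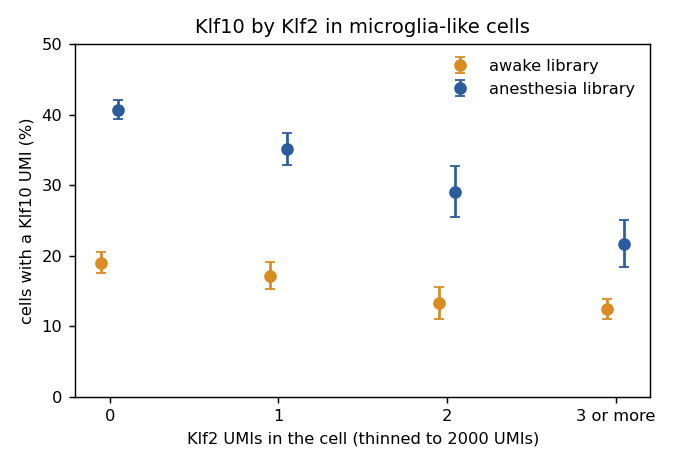
Share of microglia-like cells with a Klf10 UMI (percent, with exact 95% binomial intervals) by the number of Klf2 UMIs in the cell, each cell thinned to 2000 UMIs. The share declines from 19.0% to 12.4% in the awake library and from 40.7% to 21.6% in the anesthesia library.

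Klf2 and Klf10 were also opposed across microglia-like clusters. The awake cluster 0 had Klf2 at 1690 CPM and Klf10 at 61.6 CPM, whereas awake cluster 1 had 548 and 129 CPM. Anesthesia cells of cluster 4 had 550 CPM of Klf2 and 170 CPM of Klf10, those of cluster 3 had 390 and 258 CPM, and those of cluster 2 had 146 and 391 CPM. Awake cluster 1 and anesthesia cluster 4 were therefore alike in Klf2 while Klf10 was higher in the latter. Over the 6 cluster sums of each library, the Pearson correlation of log2(CPM + 1) was -0.93 awake and -0.91 under anesthesia, and -0.92 over all 12. These sums share a library and a clustering, from which the Klf genes were left out, so the values are a description. Over all 21 cluster-by-library sums, which add other cell types, it was 0.050. Within each of the 6 microglia-like clusters Klf2 was lower in anesthesia cells (log2 ratio -1.83 to -0.83) and Klf10 higher (0.34 to 1.81), although clusters 0 to 4 hold few cells of one library.

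**Figure D5:**
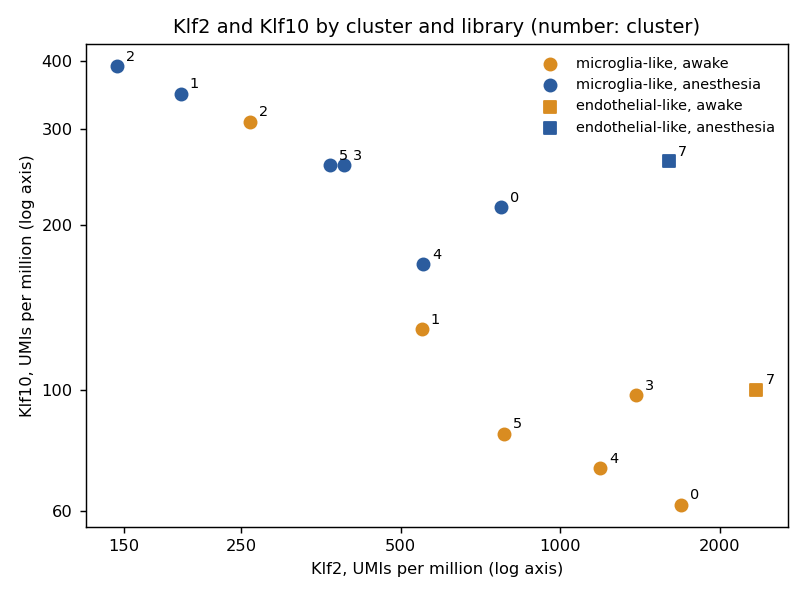
Klf2 against Klf10 in CPM (log axes), one point per cluster and library, numbered by cluster; circles are microglia-like and squares endothelial-like clusters. Among circles, high Klf2 goes with low Klf10, from cluster 0 of the awake library (1690 and 61.6) to cluster 2 of the anesthesia library (146 and 391). The awake square (2344 and 99.9) lies to the right of all circles. The anesthesia square (1600 and 262) lies just left of the awake circle of cluster 0.

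By the same correlation over the 21 sums, the genes most like Klf2 were Tsc22d3, a glucocorticoid-induced leucine zipper gene (Pearson correlation 0.90), the AP-1 subunit gene Fosb (0.83), Rnf144b (0.83), the G protein regulator gene Rgs3 (0.83) and Nrbp1 (0.82). In microglia-like cells Tsc22d3 was at 268 CPM awake and 112 CPM under anesthesia and Fosb at 660 and 396 CPM, both lower in the anesthesia library like Klf2. The log2 ratios of Rnf144b, Rgs3 and Nrbp1 were smaller, at -0.67, -0.54 and -0.13. Those most like Klf10 were Nop58, of the small nucleolar ribonucleoprotein (0.94), Map3k8, a kinase of inflammatory signalling (0.92), the Integrator subunit gene Ints13 (0.92), Msh5 (0.92) and Setd5 (0.91). Map3k8 was at 109 CPM awake and 160 CPM under anesthesia and Setd5 at 77.1 and 144 CPM. The 21 sums include other cell types, so likeness over them need not hold among microglia-like cells.

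Endothelial-like cells shared the Klf10 difference, while for Klf2 the endothelial value depended on which barcodes were counted. Klf10 was at 99.9 CPM awake (70 UMIs) and 262 CPM under anesthesia (220 UMIs), a log2 ratio of 1.39 (0.996 to 1.80). Klf2 was at 2344 CPM (1642 UMIs) and 1600 CPM (1344 UMIs), a log2 ratio of -0.55 (-0.66 to -0.45). Klf3 was at 121 CPM (85 UMIs) and 376 CPM (316 UMIs), a higher level (log2 ratio 1.63, 1.28 to 1.99). Of the 8 members none was at least 1.5-fold lower and 2, Klf3 and Klf10, were at least 1.5-fold higher, where among 7957 genes with 20 UMIs or more 24.0% were lower and 19.4% higher.

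These barcodes also carried microglial RNA, at different levels in the 2 libraries. The 10 microglial markers, none at 0, summed to 4295 CPM in awake and 9067 CPM in anesthesia endothelial-like cells, and 8 abundant microglial genes stood at 18.9% and 44.2% of their level in microglia-like cells. If all factors were carried over at those shares, microglial RNA would amount to 8.87% and 9.29% of the endothelial Klf2 level and to 18.3% and 48.5% of that of Klf10. Among the 94 awake and 80 anesthesia cells with at most 1% of UMIs from those genes, Klf2 was at 2490 and 2468 CPM (log2 ratio -0.013, -0.14 to 0.11), Klf10 at 104 and 232 CPM (1.16, 0.64 to 1.68) and Klf3 at 124 and 607 CPM (2.29, 1.88 to 2.72). In these cells the Klf2 difference was not seen, and those of Klf10 and Klf3 were. Microglial RNA also counts in the total to which CPM is scaled. In all endothelial-like cells the 10 endothelial markers summed to 19308 CPM awake and 13254 CPM under anesthesia, lower like Klf2. How far a larger microglial share lowered the endothelial levels of Klf2 and other factors was not tested.

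The remaining members in all endothelial-like cells differed by less. Klf4 was at 1645 CPM awake and 1642 CPM under anesthesia (log2 ratio -0.0026, -0.12 to 0.11), and at 1811 and 2224 CPM in the cells low in microglial genes (0.30, 0.16 to 0.43). Klf6 was at 634 and 729 CPM (0.20, 0.022 to 0.38), and Klf7 at 345 and 342 CPM (-0.016). Klf13 was at 327 and 254 CPM (-0.37, -0.64 to -0.091), but in the cells low in microglial genes its interval spanned 0 (-0.15, -0.49 to 0.19). In all endothelial-like cells Klf9 was at 341 CPM awake and 352 CPM under anesthesia (log2 ratio 0.047, -0.20 to 0.30). Its level in microglia-like cells was 5.58 and 7.14 CPM. Klf9 was found in 51.9% and 51.8% of thinned endothelial-like cells. Klf3 was found in 17.9% of 106 thinned awake and 56.3% of 112 thinned anesthesia endothelial-like cells (exact 95% intervals 11.2% to 26.6% and 46.6% to 65.6%), and P2ry12, a gene of microglia, in 25.5% and 35.7%.

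In small classes with few cells the same directions were found for Klf2 and Klf10. Choroid plexus or ependymal-like cells (36 awake, 77 anesthesia) had Klf2 at 268 CPM (counting interval 212 to 334) and 159 CPM (128 to 196), and Klf10 at 44.6 CPM (23.8 to 76.3) and 134 CPM (105 to 168). Their Klf3 level was 24.0 CPM awake (9.66 to 49.5) and 79.5 CPM under anesthesia (57.7 to 107). Neutrophil-like cells had Klf2 at 468 CPM in 22 awake and 198 CPM in 3 anesthesia cells. After thinning, P2ry12 was found in 46.4% of awake and 35.7% of anesthesia choroid plexus or ependymal-like cells. In awake neutrophil-like cells the share was 31.8%. The part of microglial RNA in these classes was not tested. The 2 clusters left unnamed held 494 awake and 144 anesthesia cells, 6.01% and 1.61% of all cells. Klf2 there was at 1161 and 299 CPM (log2 ratio -1.955, -2.16 to -1.76) and Klf10 at 95.3 and 138 CPM (0.54, 0.20 to 0.87). Most of these cells were cluster 6 (388 awake, 87 anesthesia), with all 10 microglial markers found in 25% of cells. Klf2 was at 1242 and 349 CPM in cluster 6 and Klf10 at 103 and 164 CPM. The rest, cluster 8 (106 and 57 cells), had 5 platelet markers among its leading genes and 2 and 3 Klf10 UMIs.

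Related genes were described by lists, each beside the median log2 ratio of all measured genes, -0.014, and their shares past 1.5-fold, 13.6% higher and 11.9% lower. Of 9 other Klf genes, 3 were measured in microglia-like cells and none reached 1.5-fold. Klf11, the closest relative of Klf10, was at 13.2 CPM awake and 17.1 CPM under anesthesia (log2 ratio 0.38), the repressor gene Klf12 at 0.46 and Klf16 at -0.45. Of the SP family 4 of 9 were measured, with a median of 0.50. Sp4 was at 30.1 and 65.4 CPM (log2 ratio 1.12, 1.03 to 1.21), and Sp3, Sp1 and Sp2 had log2 ratios of 0.57, 0.42 and 0.39.

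Of 12 genes listed for the ERK5 and MEF2 route to Klf2 and Klf4, which include histone deacetylase genes, 11 were measured and had a median of 0.25. Past 1.5-fold, 2 were higher and 1 was lower, near the shares among all measured genes (13.6% and 11.9%). Mef2a was at 619 CPM awake and 1082 CPM under anesthesia (log2 ratio 0.81). The upstream kinase genes differed in sign, with Map3k2 at 0.72, Map3k3 at -0.69 and Map2k5 at -0.35. Mapk7, the gene of ERK5, was at -0.32. Within clusters none of these genes was 1.5-fold higher and 2 were lower (median 0.051), where 11.6% of all measured genes were higher and 14.4% lower. The 2 were Map3k3 (-0.69) and Mapk7 (-0.59). On the TGF-beta route to Klf10, 12 of 12 were measured and had a median of 0.22. Past 1.5-fold, 4 were higher and none lower, where 13.6% of all measured genes were higher and 11.9% lower. The 4 were Tgif1 (217 and 361 CPM, log2 ratio 0.73), Ski (0.67), Skil (942.9 and 1492 CPM, 0.66) and the ubiquitin ligase gene Smurf2 (0.62). Within clusters 1 of them and after removal of the length and GC trend 2 reached 1.5-fold.

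Among 12 cofactors and ubiquitin ligases of these factors the median was -0.14, with 1 gene at least 1.5-fold higher, Wwp1, a ligase that targets Klf2 for degradation, at 24.6 and 46.0 CPM (log2 ratio 0.90, 0.80 to 1.003). Hdac2 was at -0.54, the acetyltransferase gene Ep300 at 0.49 and Sin3a at 0.47. Of 11 genes known to be regulated by KLF2 or KLF4 in endothelium or T cells, 5 were measured in microglia-like cells, 4 of them at least 1.5-fold higher (13.6% of all measured genes), with a median of 0.95. Without the filter on low counts, 10 of the genes had a value, 4 were higher and 1 lower, and the median was 0.015. Among all 22713 genes with a value in that setting, 26.45% were higher and 14.87% lower. Edn1, which KLF2 holds down in human endothelium, was at 26.9 CPM awake and 55.5 CPM under anesthesia (log2 ratio 1.05), the adhesion gene Vcam1 at 5.64 and 10.9 CPM (0.95), and S1pr1, which KLF2 activates, at 17.8 and 29.8 CPM (0.74). Within clusters the median was 0.056, with 2 higher and 1 lower, where 11.6% of all measured genes were higher and 14.4% lower. Edn1 was at 0.056 and Vcam1 at -0.72 within clusters. In endothelial-like cells low in microglial genes S1pr1 was at 258 CPM awake and 1037 CPM under anesthesia (log2 ratio 2.01, 1.72 to 2.31), whereas Nos3, another gene that KLF2 activates, was at 144 and 139 CPM (-0.043, -0.59 to 0.49).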

How the data were processed

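Single-cell 3′ RNA libraries of 2 groups, 1 library each, were deposited by the authors as UMI count matrices with Cell Ranger (version 3.1.0 per the submitters' processing notes, 4.0.0 per the file headers) on GRCm38. The values are raw counts, not normalized. Members and gene lists were chosen with earlier results of these data known. A barcode was kept with 500 or more genes, 1000 or more UMIs and a mitochondrial share up to 10%. Depth was 53262885 UMIs awake and 61139016 under anesthesia. Joint clustering of the libraries used leidenalg 0.10.2 within scanpy 1.11.5 (2000 variable genes, 30 components, 15 neighbours, resolution 1, a value set after clusters had been seen) without the Klf, SP, early-response, cytokine, heat shock, mitochondrial and ribosomal genes. A cluster took the name of a class other than microglia with 3 or more of its markers among the 10 leading genes and 3 or more found in 25% of cells. It was called microglia-like with 7 or more microglial markers found in 25% of cells and no more leading markers of another class than of microglia. The rest stayed unnamed (494 awake and 144 anesthesia cells). Scrublet called 0 and 1 doublets, so it had not worked and no cell was removed. UMIs were summed per class and library and scaled to CPM. Intervals came from scipy 1.17.1. Thinning drew 2000 UMIs per cell, and shallower cells were left out. Genes were measured at 200 UMIs or more (20 in endothelial-like cells) over both libraries. With 1 library per group no test was run and no p-value is given. Scripts were tested on simulated data. The genes named were the members, up to 4 measured genes per list by size of log2 ratio, and the 5 genes most like Klf2 and the 5 most like Klf10, except 1 listed gene that is not reported here. Endothelial values of listed genes, choroid and neutrophil values and within-cluster values were chosen after they had been seen. Sequences and gene positions came from RefSeq GRCm38.p6 and the GENCODE annotation, in which all 55450 gene IDs matched.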

Additional observations from a re-analysis of the deposited data

Results flagged for a closer look

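The log2 ratios of 3 factors had opposite signs in microglia-like and endothelial-like cells, with counting intervals off 0 in both, and the difference between the classes was not tested. Klf3 was at -0.12 in microglia-like and 1.63 in endothelial-like cells. Klf6 was at -0.28 and 0.20. Klf13 was at 0.34 and -0.37, and its endothelial interval spanned 0 among cells low in microglial genes (-0.15, -0.49 to 0.19).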

How the results depend on the processing

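No paired analysis was possible because each group is 1 library. In microglia-like cells the log2 ratio of Klf2 was -1.71, and it was -1.67 with mitochondrial, ribosomal protein, Gm42418 and Malat1 UMIs left out of the total, -1.75 without cells over 10000 UMIs, -1.74 without the 8% of cells with the highest doublet scores, -1.75 as the mean of per-cell CPM, -1.22 within clusters and -1.42 with a length and GC trend removed. Klf10 was at 1.07 within clusters. The Klf2 to Klf10 ratio was at -2.29 within clusters and -2.99 with the trend removed. Klf4 reversed, to 0.027 within clusters and 0.0030 with the trend removed. The count of members past 1.5-fold was 1 in each direction under every alternative run, also at 2-fold. Without the filter on low counts, 3377 of 22713 genes were lower past 1.5-fold (14.87%) and 6007 higher (26.45%). With it, 1365 and 1560 of 11469 were past 1.5-fold, and 317 and 491 past 2-fold. In endothelial-like cells Klf2 was the least stable value, at -0.91 with at most 5% mitochondrial UMIs, -0.21 without cells over 10000 UMIs, -0.037 with a marker gate, -0.24 without high doublet scores, -0.76 at cluster resolution 0.6, -0.013 in cells with at most 1% microglial-gene UMIs and -0.16 as the mean of per-cell CPM. The cause was not tested. Klf10 there ranged from 1.16 to 1.48. Resolution 0.6, the low-microglial-gene cells and leaving out the shallow cluster 5 were chosen after seeing the data. Within-cluster and trend-removed ratios were not computed for endothelial-like cells, which form 1 cluster of few counts. Of the other values, 91 moved by less than their counting interval, 27 by more and 2 reversed. A change of sign was counted as reversed only where the main interval did not span 0. Klf4, Klf7 and Klf9 in endothelial-like cells, whose intervals spanned 0, changed sign in some settings and are not in that count. Depth of the endothelial-like class was 700396 and 839902 UMIs.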
